A study of Mus musculus with 84 samples.

Results

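The genes described here are the nuclear genes of the mitochondrial respiratory chain and the ATP synthase. They were taken from the expression table by their names: Ndufa, Ndufb, Ndufc, Ndufs and Ndufv genes (complex I, and Ndufa4 with its paralog Ndufa4l2), Sdha to Sdhd (complex II), Uqcr genes (complex III), Cycs (cytochrome c), Cox4 to Cox8 genes (complex IV) and Atp5 genes (complex V). The Ndufaf assembly factors were kept out. The rule found 85 genes among the 20308 rows, and it used no measured value. Complex I contributed 35 of them, complex II 4, complex III 8, complex IV 20 with the Ndufa4 pair, complex V 17, and cytochrome c 1. Atp5s, Atp5sl and Ndufa4l2 carry such names but are not known structural subunits, and Cox7a2l is known as a supercomplex assembly factor. Ndufab1, Cyc1 and Usmg5 are chain genes whose names the rule does not match, so values by complex do not cover every subunit.

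The study sequenced RNA of 84 single cells of the AGM (aorta, gonad and mesonephros) of E11.5 mouse embryos, the trunk region around the dorsal aorta in which blood stem cells arise. Every cell was sorted as positive for the endothelial proteins CD31 and CD144 and negative for CD41 and CD45, and no strain, genotype, treatment or embryo is given for any cell. The cells are thus a single sample of 1 group, without replicates, and no test was run across them. Levels are given in TPM, a unit scaled to transcript length and to a fixed total per cell, so levels of different genes can be set side by side.

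Complexes I to IV pass electrons from NADH and succinate to oxygen, and complexes I, III and IV pump protons across the inner mitochondrial membrane. Complex V, the ATP synthase, uses the returning protons to make ATP. Most subunits are encoded in the nucleus and imported, while core membrane subunits of complexes I, III and IV and a part of the membrane sector of complex V come from mitochondrial DNA. Those mitochondrially encoded genes are not analysed here. Several complex IV subunits exist as pairs of isoforms, with a widely expressed form and a form known from heart and skeletal muscle, lung or testis. Endothelial cells are generally described as strongly glycolytic.

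The sorted proteins were checked at the RNA level. Pecam1, which encodes CD31, reached TPM 1 in 80 cells and Cdh5, which encodes CD144, in 82. Itga2b (CD41) did so in 7 cells and Ptprc (CD45) in 0. At least 3 of 10 endothelial markers reached TPM 10 in 80 cells. At least 3 markers of another cell type did so in 42 cells, most often mesenchyme (34 of 84 cells), and 38 of the 42 held endothelial markers as well. The other 4 (cells 13, 23, 39 and 65) held no more than 1 endothelial marker, and their sums over the chain genes were 2.93% to 4.01% of TPM. Muscle markers were that frequent in 5 cells, neural in 4, platelet in 3, erythroid in 2, epithelial in 1 and macrophage in 0. Among the markers that reached TPM 1 in no cell were Slc4a1, C1qb, C1qc, Myh11, Krt8 and Th. A median of 6978 genes per cell reached TPM 1, the level called detected below, with quartiles of 6532 and 7406. Cell 72 held the fewest, 3334, and cell 78 held 4938. Detection counts, sums, levels by complex, median correlations, module score relations and isoform shares were also computed without cells 72 and 78. The SDs, the SD trend and the shares of undetected values were not. Values given below without the 2 farthest cells need not leave out the same pair. TPM keeps no read depth, so the depth behind each value is unknown.

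Nearly every subunit gene of the chain was transcribed in nearly every cell. Of the 85 genes, 75 (88.2%) were detected in at least 42 of the 84 cells, against 34.6% of all rows of the table. Detection in all 84 cells held for 43 genes (50.6%), against 3.71% of all rows. The 75 genes are called the usual members below. There was a wide gap between them and the remainder: 74 of them were detected in at least 76 cells, and the lowest, the complex I core gene Ndufv1, in 75. The remaining 10 genes reached 0 to 36 cells. Among the 6300 values of the usual members, 77 (1.22%) were under TPM 1, and 54 cells held all 75. Cell 72 alone accounted for 20 of the undetected values, cell 78 for 9 and cell 54, with 5437 detected genes, for 6.

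The usual members were also abundant. Their median levels had a median of 398 TPM. All 75 lay above 17.4 TPM, the median of the 7031 rows detected in at least 42 cells. Among the highest 10% of those rows by median stood 57 of the 75, or 76%. Their individual medians still ran from 82.1 TPM (Sdhc) to 1917 TPM (Cox6a1). Within single complexes, whose products meet in fixed proportions, the medians spanned from 3.96-fold (complex V) to 13.8-fold (complex III).

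**Figure D1:**
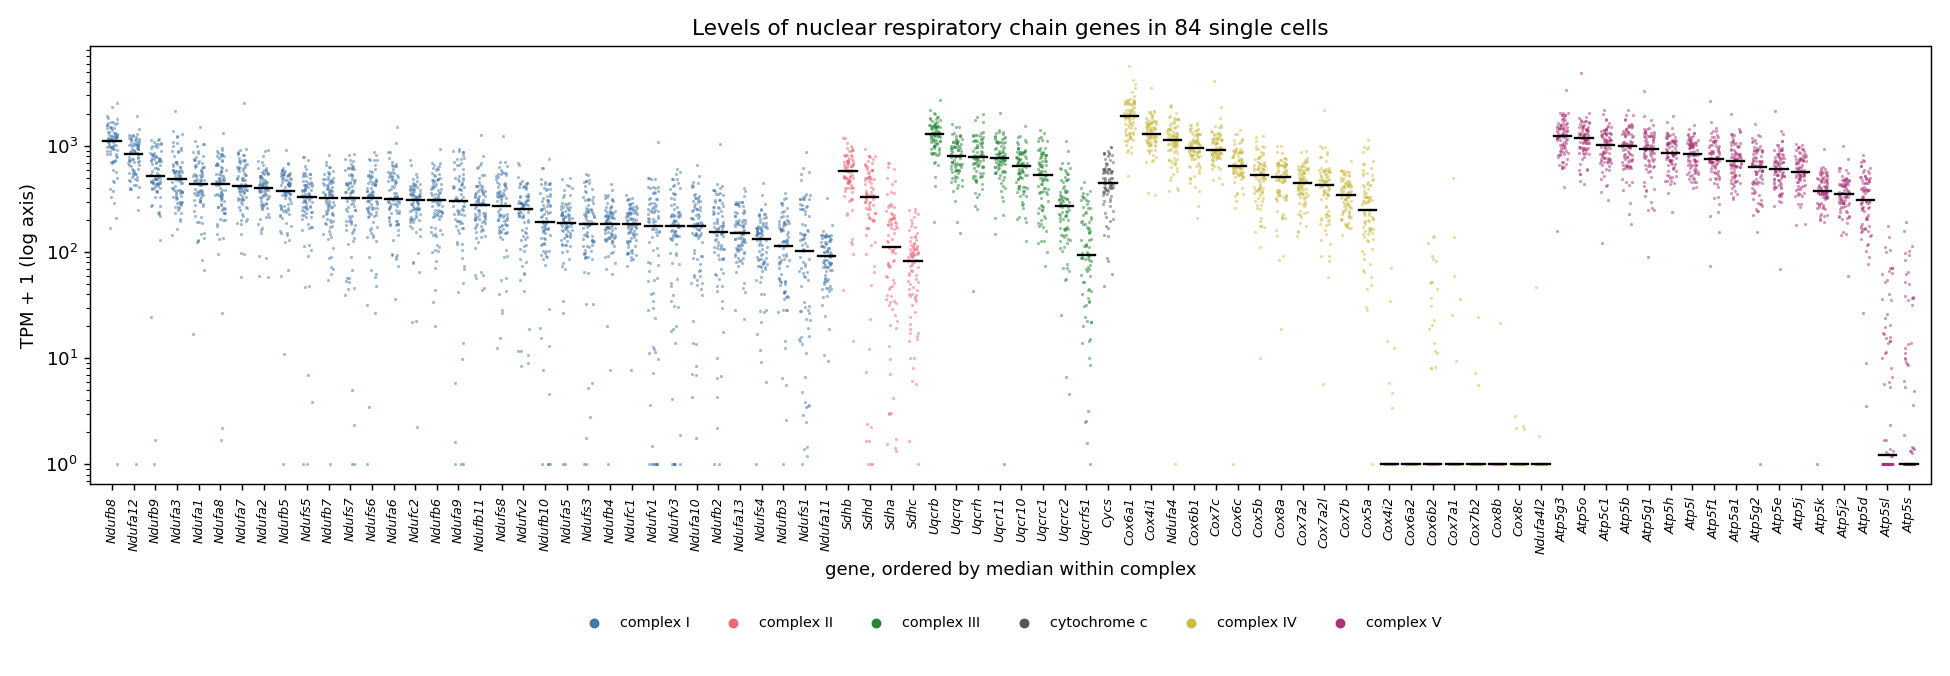
TPM + 1 (log axis) of 84 of the 85 genes in each of the 84 cells (points), with the median as a black bar, ordered by complex and level. The bars of the usual members lie between 82.1 TPM (Sdhc) and 1917 TPM (Cox6a1), while 10 genes, most of them tissue isoforms of complex IV, sit at or near 0 in most cells.

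Complex I, NADH dehydrogenase, was the complex with the most members and a low level per gene. All 35 genes assigned to it were usual members, and 13 were detected in every cell. The median of their medians was 277 TPM. Among these 35 genes, accessory subunits, which surround the catalytic core, gave both ends of the range. Ndufb8 (19:44548571-44555442) had the highest level, with a lowest value of 0, a median of 1114 and a highest value of 2540 TPM. Ndufa12 followed with a median of 849 TPM (0 to 1933), and Ndufb9 with 525 TPM (0 to 1167). These genes stood well above the bulk of the complex in most cells, yet each was missed entirely in at least 1 cell. At the low end, Ndufa11 (17:56717762-56724248) had a median of 90.7 TPM, from 8.42 to 321 TPM, and was nevertheless found in all 84 cells. Ndufb3 had a median of 114 TPM (0 to 358). Ndufab1, a gene of this complex that the name rule does not match, was lower, with a median of 50.8 TPM and 83 detected cells.

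The core subunits of complex I carry the flavin and the iron-sulfur clusters that electrons pass through. As a group they were lower than the accessory subunits. The 7 core genes had a median of medians of 201 TPM, from Ndufs1 (102 TPM, 0 to 884) to Ndufs7 (324 TPM, 0 to 840). The 28 accessory genes had 308 TPM. Within single cells the median accessory level (268 TPM over cells) lay above the median core level (219 TPM) in 61 of 84 cells, so the order was common but not general. Core genes were also missed more often: 4.25% of their values were under TPM 1, against 1.40% for accessory genes. Ndufv1, which encodes the flavin-binding subunit, was missed in the most cells of any usual member but reached 1084 TPM at its highest. Core transcripts were longer, with a median of 1623 bases against 868, and the part of length in detection was not tested.

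Complex II, succinate dehydrogenase, is the complex that belongs to both the citrate cycle and the chain, and all of its subunits are nuclear. Its 4 genes had the highest median SD of log2(TPM + 1) over cells, 1.86. The median was 1.35 in complex I, 0.84 in III, 0.72 in IV and 0.64 in V. Single genes differed, with 0.99 for Sdhb, 1.53 for Sdhc, 2.20 for Sdha and 2.46 for Sdhd. Ndufv1 of complex I had 2.71, and these SDs take no account of level. Sdhb, the iron-sulfur subunit, had a median of 575 TPM and was found in every cell, from 13.6 to 1195 TPM. Sdhd, a membrane anchor (9:50596340-50603849), had a median of 330.1 TPM, from 0 to 941 TPM. The flavin-binding catalytic subunit Sdha had a median of 110 TPM (0.33 to 696), and the anchor Sdhc of 82.1 TPM (0 to 255). Sdhb never fell under TPM 10, whereas Sdha did in 10 cells, Sdhd in 8 and Sdhc in 7. At least 2 of the 4 genes were under TPM 10 together in 3 cells.

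Complex III, the cytochrome bc1 complex, had a median of medians of 711 TPM over 8 genes, all of them usual members. Cyc1, a gene of this complex that the name rule does not match, is not among them. It was detected in 79 cells, with a median of 155.6 TPM. Small accessory subunits led it. Uqcrb (13:66900576-66905350), known as a ubiquinone-binding subunit, had a median of 1296 TPM and was never under 191.5 TPM, with a highest value of 2720 TPM. Uqcrq (801 TPM, 150.4 to 1603) and the hinge protein gene Uqcrh (789 TPM, 41.9 to 2021) followed. The 5 accessory genes had a median of medians of 789 TPM and the 3 core genes 269 TPM. Among the core genes were the structural Uqcrc1 (527 TPM, 72.7 to 1430) and Uqcrc2 (269 TPM, 3.55 to 1117). The lowest was Uqcrfs1, the Rieske iron-sulfur protein, at 93.9 TPM (0 to 453). Cycs, the mobile carrier between complexes III and IV, had a median of 450.2 TPM and was never at 0, its values running from 46.7 to 988 TPM.

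Complex IV, cytochrome c oxidase, held the highest gene of the set. Cox6a1 (5:115345652-115348958) had a median of 1917 TPM and was never under 518 TPM, with its highest value of 5707 TPM in cell 81. Cox4i1, which encodes the largest nuclear subunit, followed at 1293 TPM (345 to 3522), and Ndufa4, a complex IV subunit despite its name, at 1141 TPM (0 to 2451). Of the 20 genes, 12 were usual members, with a median of medians of 588 TPM. Their lowest were Cox5a at 247 TPM (0 to 1144), Cox7b at 345 TPM (143 to 723) and Cox7a2l at 427 TPM (4.73 to 2193). The other 8 genes were tissue isoforms or the paralog Ndufa4l2 and are described with the isoforms.

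Complex V had the highest and most even levels. Its 15 subunit genes had a median of medians of 752 TPM, and 13 were detected in every cell. Their medians spanned 3.96-fold, against 12.3-fold in complex I, 7-fold in complex II, 13.8-fold in complex III and 7.75-fold in complex IV. Atp5g3 (2:73908447-73912464), a gene for the c subunit of the membrane rotor, led with 1231 TPM (159 to 3405). Atp5o, the subunit that joins the peripheral stalk to the catalytic head, had 1193 TPM (436 to 4936), and the central stalk gene Atp5c1 1017 TPM (121 to 2209). The lowest were Atp5d (311 TPM, 2.57 to 818), Atp5j2 (354 TPM, 58.5 to 995) and Atp5k (379 TPM, 0 to 939).

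The c subunit is present in many copies per ATP synthase, and its mature protein is encoded in parallel by Atp5g1, Atp5g2 and Atp5g3. The summed TPM of these genes had a median of 2902 per cell (quartiles 2334 and 3264, lowest 1258, highest 6254). The sum lay above each of the 5 genes of the catalytic F1 head and central stalk in 84 of 84 cells. The median ratio of the sum was 4.03 to Atp5a1 (the alpha subunit), 2.95 to Atp5b (the beta subunit), 2.73 to Atp5c1, 8.52 to Atp5d and 4.59 to Atp5e. Atp5g3 gave 44.2% of the sum over cells, Atp5g1 33.3% and Atp5g2 22.5%. Atp5g3 was the highest of them in 61 cells, Atp5g1 in 16 and Atp5g2 in 7, so the leading copy was usually but not always Atp5g3.

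Within a cell the complexes kept an order. The median TPM over the usual members of a complex, taken in each cell, had a median over cells of 255 for complex I, 239 for complex II, 617 for complex III, 649 for complex IV and 714 for complex V. The quartiles over cells were 224 and 284 for complex I, 156 and 315 for complex II, 538 and 754 for complex III, 575 and 774 for complex IV, and 643 and 784 for complex V. Complexes III, IV and V each lay above complex I in 84 of 84 cells. They lay above complex II in 84, 83 and 84 cells. Neighbours in the order overlapped: complex II was above complex I in 38 cells, complex IV above complex III in 47, and complex V above complex IV in 56. Complex I and II against complex III to V was therefore the only division that held in 83 or more of the cells.

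**Figure D2:**
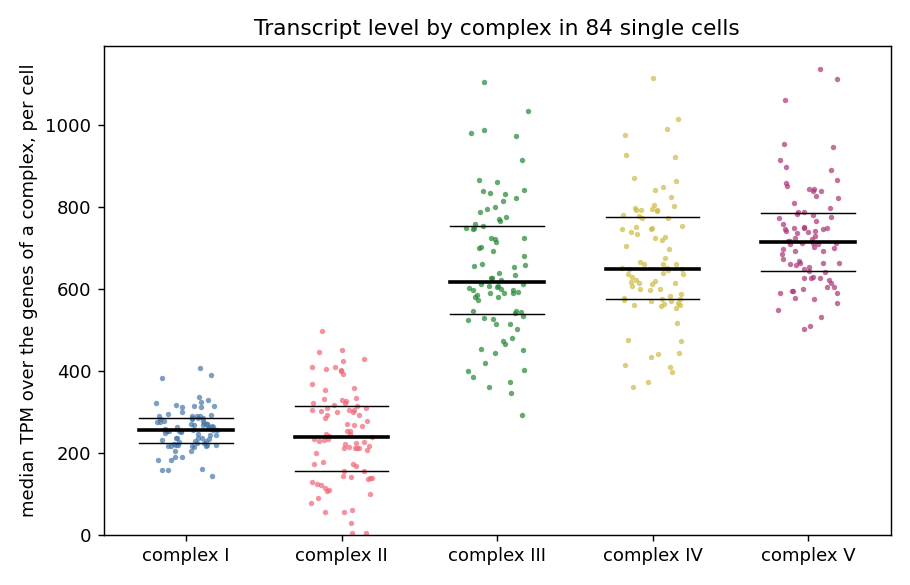
Median TPM over the usual members of each complex, per cell (points, 84 cells; linear axis from 0), with the median over cells and the quartiles as bars. Complexes III, IV and V (medians 617, 649 and 714 TPM) lie above complexes I and II (255 and 239 TPM) in 83 or 84 cells.

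Transcript length moved with level: Spearman's rho of spliced length with median TPM was -0.35 over the 75 genes and -0.33 over 6707 rows with a length, both across genes, which are not independent replicates. Among members shorter than 908 bases, the median of medians was 326 TPM for 15 complex I genes, 779 for 4 complex III genes, 787 for 10 complex IV genes and 735 for 8 complex V genes. The gap between complex I and the later complexes was thus present among short transcripts as well. No complex II gene was that short. Many of these genes have processed pseudogenes, and how reads shared with such copies were divided is not given in the sources used here.

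Summed over a cell, all 85 genes took a median of 3.99% of its TPM, with quartiles of 3.68% and 4.37% and an SD over cells of 0.572 percentage points. That total includes no mitochondrially encoded transcripts. Complex V gave 29.5% of the summed TPM of the set, complex I 28.4%, complex IV 24.6%, complex III 13.4%, complex II 2.90% and Cycs 1.19%. Cell 65 had the lowest sum (2.93%) and cell 78 the highest (6.78%), followed by cell 81 (5.62%) and cell 46 (5.05%). Without cells 72 and 78 the median was 3.98%. The high sum of cell 78 came from part of the set. There 41 of 75 usual members (54.7%) exceeded their own median, with Atp5o at 4936 TPM, Cox7c at 4098 TPM and Atp5g1 at 3293 TPM. In the same cell the 4 complex II genes summed to 22.5 TPM, the lowest such sum of any cell. The 42 cells with markers of another cell type had a median sum of 3.78% (2.93% to 6.78%) and the other 42 cells 4.05% (3.38% to 5.05%). The narrower range lay inside the wider, and the part of those markers was not tested.

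The 8 genes that are tissue isoforms or the Ndufa4 paralog were rare, and the common form made up nearly all of each pair. Cox6a2, known from heart and skeletal muscle, was at 0 in all 84 cells. The exact Clopper-Pearson 95% upper limit is 4.30% of cells with a detected transcript, for counting error only, and it does not limit the share of cells that express the gene. Cox6a1 was in every cell. Cox8b, the muscle form of Cox8a, was seen in 1 cell at 20.4 TPM, and Cox8c, a testis form, in 4 cells at no more than 1.87 TPM, beside a Cox8a median of 508 TPM. Cox7b2 reached 3 cells with a highest value of 23.4 TPM, against 345 TPM for Cox7b. Ndufa4l2, known as a hypoxia-induced paralog, reached TPM 1 in 1 cell, cell 23, at 46.3 TPM, a cell with 0 of the 10 endothelial markers. Of Cox4i summed TPM, 99.9% was Cox4i1 and 0.122% Cox4i2, the form known from lung and low oxygen. Cox4i2 was found in 7 cells, at 2.42 to 70.5 TPM.

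Cox6b2, a form known from testis (7:4751792-4753094), was the most frequent of these isoforms. It was detected in 21 of 84 cells (25%, exact Clopper-Pearson 95% interval 16.2% to 35.6%, counting error only), in 18 of them at TPM 10 or more. Its highest value was 142.5 TPM in cell 78, followed by 138 TPM in cell 45. It made up 1.25% of the summed Cox6b TPM, the remainder being Cox6b1 with a median of 953 TPM. Of the 21 cells, 16 held at least 3 markers of another cell type, while 42 of all 84 cells did. Without those 42 cells the Cox6b2 share was 0.284%, and the part of other cell types in the value was not tested.

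Cox7a1, the muscle form of Cox7a (7:30184171-30186030), was found in 6 cells, from 8.41 to 495 TPM. The highest was cell 79 at 495 TPM, followed by cell 4 at 138 TPM, and 5 of the 6 cells held markers of another type. It gave 0.993% of the family's TPM, and 0.356% without the cells that held such markers. The remainder was divided almost evenly between Cox7a2 (50.1%, median 449 TPM) and Cox7a2l (48.9%), with Cox7a2 the highest in 50 cells and Cox7a2l in 34. In all, 31 cells held any of the 8 rare isoforms at TPM 1 and 24 at TPM 10. Of the 31, 21 held markers of another type. None of the 6 Cox7a1 cells held 3 muscle markers.

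**Figure D3:**
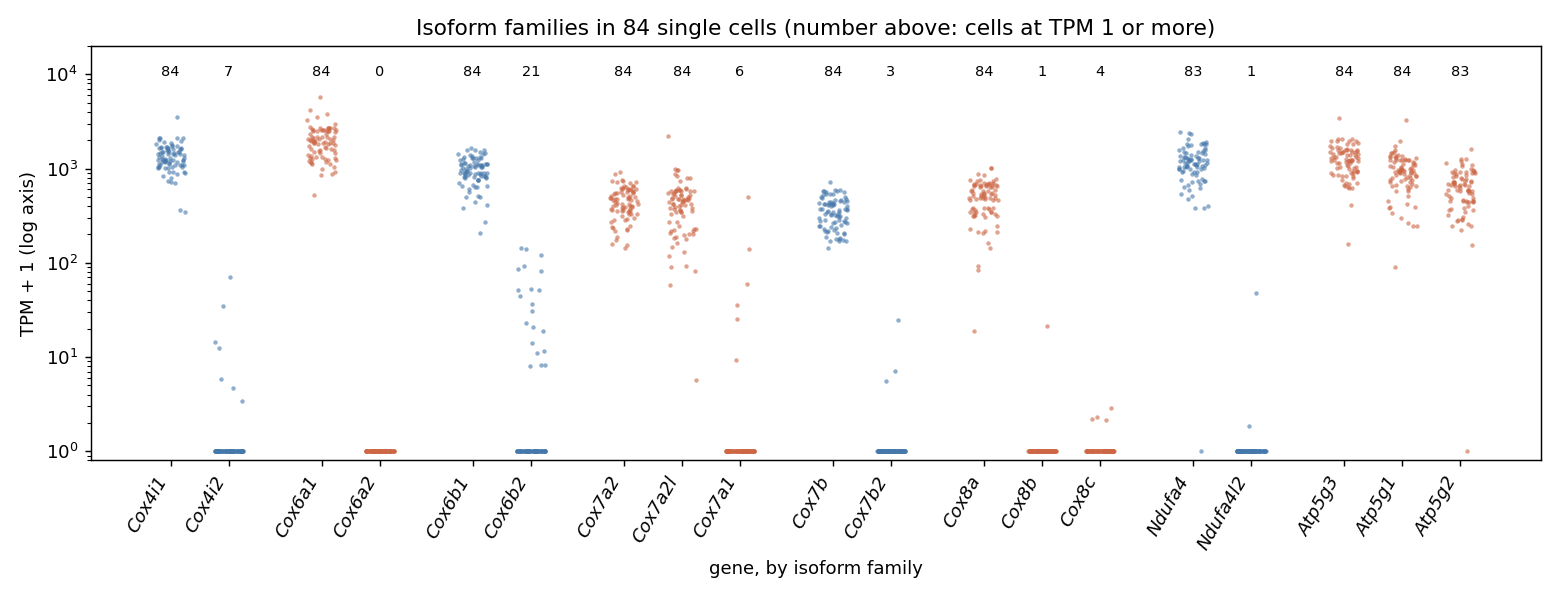
TPM + 1 (log axis) of each gene of 8 isoform families in each of the 84 cells (points), with the number of cells at TPM 1 or more above each column. The common forms are in 83 or 84 cells, whereas Cox6b2 is in 21, Cox4i2 in 7, Cox7a1 in 6 and Cox6a2 in 0; the Atp5g and Cox7a2 genes share their families more evenly.

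The promoters of the isoform pairs differ in letters, and they are shown because the members of a pair encode variants of the same subunit at very different levels. RefSeq promoter windows of GRCm38.p6 (the assembly known as mm10) matched 70 of the 85 genes and run from 250 bases before to 50 after the start. Among the genes with no entry were Atp5a1, Cox4i1, Cox4i2, Cox6a2, Cox6c, Cox8c, Ndufa2, Ndufa4l2, Ndufb9, Ndufs1, Sdhc, Uqcrb, Uqcrc2 and Uqcrq. The lines give the 100 bases before the start site of each gene's window, in the direction of transcription, with every CG in capitals. For Cox7a2 that start site (79759853) lies inside the RefSeq gene span (9:79755241-79771422), so its line is not the stretch before the outer end of the gene.
Cox7a2 (chr9:79759854-79759953, minus strand): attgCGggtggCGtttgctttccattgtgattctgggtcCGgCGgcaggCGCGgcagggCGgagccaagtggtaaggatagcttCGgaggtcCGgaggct
Cox7a1 (chr7:30184071-30184170, plus strand): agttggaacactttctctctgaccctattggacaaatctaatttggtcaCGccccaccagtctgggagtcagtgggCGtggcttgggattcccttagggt
Cox6b1 (chr7:30626115-30626214, minus strand): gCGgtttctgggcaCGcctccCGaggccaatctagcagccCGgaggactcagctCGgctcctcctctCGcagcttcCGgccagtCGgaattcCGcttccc
Cox6b2 (chr7:4753095-4753194, minus strand): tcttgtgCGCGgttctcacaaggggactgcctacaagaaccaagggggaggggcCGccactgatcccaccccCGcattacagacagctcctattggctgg
Cox7b (chrX:106015600-106015699, plus strand): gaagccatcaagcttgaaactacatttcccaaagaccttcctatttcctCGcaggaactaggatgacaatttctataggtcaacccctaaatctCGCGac
Cox7b2 (chr5:71548206-71548305, minus strand): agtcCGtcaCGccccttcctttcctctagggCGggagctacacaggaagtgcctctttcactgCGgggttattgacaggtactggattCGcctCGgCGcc
Cox8a (chr19:7217617-7217716, minus strand): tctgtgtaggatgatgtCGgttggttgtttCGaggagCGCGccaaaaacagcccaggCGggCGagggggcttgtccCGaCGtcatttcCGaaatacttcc
Cox8b (chr7:140900447-140900546, minus strand): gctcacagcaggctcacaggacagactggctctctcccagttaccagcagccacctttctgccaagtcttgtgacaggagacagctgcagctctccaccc
The 300-base windows of the pairs held 20 CG in Cox7a2 and 7 in Cox7a1, 17 in Cox6b1 and 10 in Cox6b2, and 19 in Cox8a and 2 in Cox8b. In these pairs the common form had more CG than the rare form, for Cox7a2 at the start site inside its gene span. The Cox7b pair ran the other way, with 5 in Cox7b and 10 in Cox7b2, so CG content did not sort all pairs by level. Over the 64 usual members with a window, the median was 19.5 CG and a GC content of 58.5%, against 22 CG and 61.3% over 5709 rows detected in at least 42 cells, and 7 CG and 52.7% over all 27025 genes of the promoter table. The windows thus resembled those of other commonly detected genes in CG number.

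The windows were searched on both strands for the core letters of 3 factors known from promoters of respiratory genes: GCATGCG for NRF1, CCGGAAG for the ETS family, to which GABPA belongs, and AAGATGG for YY1. The end of the ETS core and the beginning of the YY1 core share the letters AAG, but no usual member's window held both. The NRF1 core was in 11 of the 64 windows (17.2%), against 7.93% of the windows of all commonly detected rows and 3.64% of all genes. For the ETS core the numbers were 15 windows (23.4%), 21.4% and 9.12%, and for the YY1 core 10 windows (15.6%), 8.46% and 6.48%. At least 1 core was in 31 windows (48.4%), against 33.5% and 17.7%. Position differed: the YY1 core lay across or after the start in all 10 windows that held it, whereas 9 of 11 NRF1 windows and 11 of 15 ETS windows held it upstream. For the NRF1 and the ETS core, stretches are shown from the 3 genes of highest median TPM that hold the core upstream, all from complexes IV and V, with Cox6a1 in both sets. The core is in capitals as it reads in the direction of transcription. In the NRF1 lines the core is present on both strands, and its overlapping matches are capitalised together.
Cox6a1, NRF1 core (chr5:115349101-115349129, minus strand): aggaacggggCGCATGCGcgctctcgctc
Atp5l, NRF1 core (chr9:44920964-44920992, minus strand): aaccaataaCGCATGCGcatttcccccac
Atp5g2, NRF1 core (chr15:102671070-102671098, minus strand): gctccggccgCGCATGCGcagagccttcc
Cox6a1, ETS core (chr5:115348959-115348985, minus strand): ccccatttccgCTTCCGGcgcgccggt
Cox6b1, ETS core (chr7:30626125-30626153, minus strand): tcctctcgcagCTTCCGGccagtcggaat
Atp5h, ETS core (chr11:115419940-115419968, minus strand): caaggagagaaCTTCCGGcaactctcttc
A match here describes letters only, and no binding was measured. The factor genes themselves had lower medians than every usual member: Nrf1 was detected in 70 cells (median 12.8 TPM), Yy1 in 70 (28.8 TPM) and Gabpa in 55 (5.74 TPM). Against the median of all commonly detected rows, 17.4 TPM, Yy1 was higher and Nrf1 and Gabpa were lower.

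Most usual members varied less from cell to cell than a trend over detected genes gave for their level, least clearly in complexes I and II. A trend of the SD of log2(TPM + 1) on its mean was drawn over the 7031 commonly detected rows. Of the 75 genes, 51 (68%) lay under it, against 48.4% of all those rows, with a median distance of -0.11 against 0.02. Those rows cover all levels, and the share among rows at the members' levels is not given. Complex V had 14 of 15 under the trend, complex III 7 of 8, complex IV 8 of 12, complex I 19 of 35 and complex II 2 of 4. The farthest below were Ndufa11 (-1.08), Ndufa13 (-0.83), Ndufc1 (-0.82), Cox7b (-0.66) and Atp5j2 (-0.61), all detected in every cell. Among the farthest above were Sdhd (0.98), Ndufv1 (0.80), Ndufa9 (0.71) and Ndufv3 (0.57), each with cells at 0. Sdhd, for example, had quartiles of 197 and 503 TPM but was undetected in 5 cells. Whether such zeros are absent transcripts or missed ones was not tested.

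Co-variation among the genes over cells was weak. Spearman's rho of log2(TPM + 1) was taken over the 84 cells, which share 1 sort gate and 1 chip format. It had a median of 0.0525 over the 2775 pairs of usual members, with 2.52% of pairs above 0.3. All 24713965 pairs of commonly detected rows had a median of 0.0232, with 1.14% above 0.3, and pairs of a member with a non-member 0.00336. Pairs within a complex had a median of 0.0569 and pairs from different complexes 0.0515. Both medians were near 0 and close to each other, and correlations this weak are given as a description only.

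The complexes still differed in their medians. Complex IV genes had 0.153 among themselves, complex IV with V 0.110 and III with IV 0.0927, while complex I had 0.0472 and complex II 0.00390. The highest pairs were Cox5a with Uqcrfs1 (0.48), Atp5k with Uqcr10 (0.48) and Atp5g3 with Uqcrb (0.45), none of them from the same complex. Among the lowest was Cycs with Uqcrh (-0.39). By mean rho with the other 74 genes, the small subunits Cox7c (0.132), Cox6c (0.124), Uqcr10 (0.122), Uqcr11 (0.118) and Uqcrb (0.115) led. The large subunits Atp5a1 (-0.0771), Ndufs1 (-0.0450), Uqcrc2 (-0.0307), Ndufs3 (-0.0258) and Sdha (-0.0217) came last.

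Mean rho moved with transcript length (rho -0.41 across the 75 genes) and with level (0.44). Pairs of members that were both shorter than 908 bases had a median rho of 0.108, and pairs that were both at least that long 0.0308. Short non-member pairs had 0.0322 and short members with short non-members 0.0429. These groups were not matched for level, and the part of length and level in the values was not tested. The Atp5g copies, which encode an identical mature subunit, had a rho of 0.0516 between Atp5g1 and Atp5g2, 0.169 between Atp5g2 and Atp5g3 and 0.272 between Atp5g1 and Atp5g3.

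**Figure D4:**
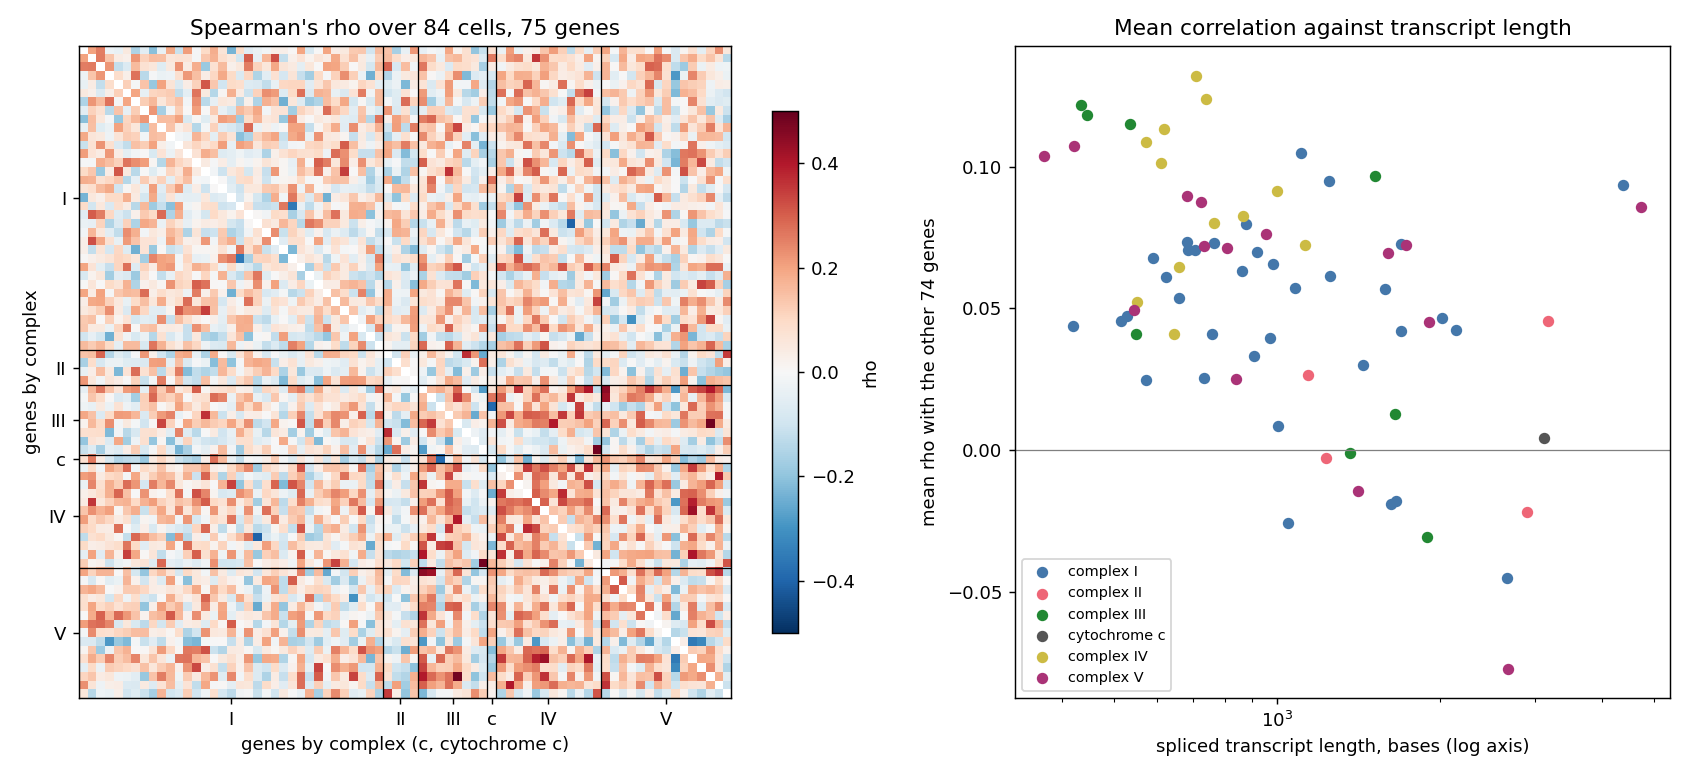
Left, Spearman's rho over 84 cells for every pair of the 75 usual members, ordered by complex and level, with black lines between complexes. Right, each gene's mean rho with the other 74 against its spliced transcript length (log axis): the highest value is 0.132 (Cox7c), the lowest -0.0771 (Atp5a1), and the longest genes, Atp5g1 and Ndufb2, lie above 0.

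A module score, the mean log2(TPM + 1) of the 75 genes in a cell, had a median of 8.50, from 6.71 in cell 72 to 8.95 in cell 81. It moved with the number of genes detected in the cell, with a Spearman rho of 0.41, a Pearson r of 0.60 and an r of 0.51 without the 2 cells farthest from the median number of genes. The summed TPM did not move with it in this way (rho 0.09). The 7 sets of 12 cells that share the second index of their library, a technical label, had median sums between 3.80% and 4.19% and median scores between 8.42 and 8.59.

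**Figure D5:**
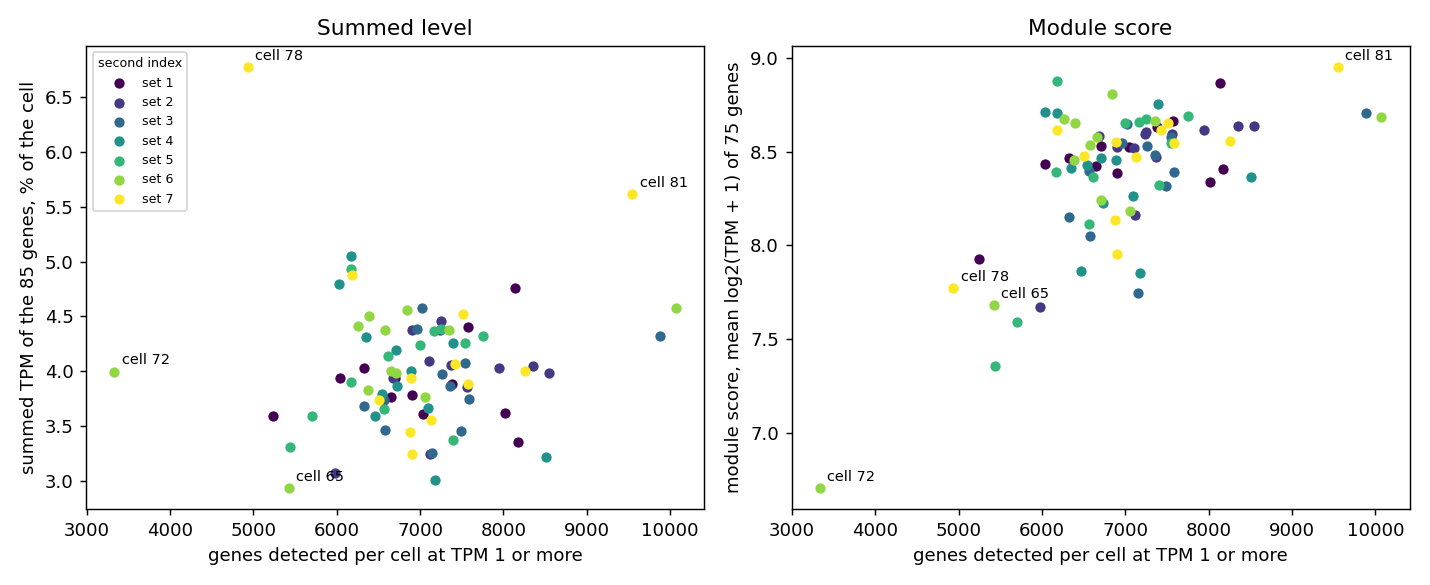
Summed TPM of the 85 genes in percent of the cell (left) and module score (right) against the number of genes detected in each of 84 cells, coloured by the set sharing the second library index. Cell 78 has the highest sum (6.78%) with 4938 detected genes, cell 72 the lowest score (6.71) with 3334, and the sets overlap.

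Other gene lists of mitochondrial energy metabolism had lower median levels than the chain itself. Of genes that belong to the chain or work with it but fall outside the name rule, 13 of 16 were detected in at least 42 cells. Their median was 156 TPM. Atpif1, the inhibitor of the ATP synthase, had a median of 867 TPM and Usmg5, a small ATP synthase subunit, 708 TPM, while the testis cytochrome c gene Cyct was in 5 cells and Coq4, a ubiquinone synthesis gene, in 39. Assembly factors, which build the complexes, were detected that often for 31 of 39 genes, at a median of 18.3 TPM. Uqcc2 (362 TPM) and Acad9 (26.2 TPM) were in all cells, whereas Sco2 was in 22 and Sdhaf1 in 18. Regulators of mitochondrial biogenesis were sparser, with 11 of 19 usual and a median of 13 TPM. The RNA-binding partner pair Slirp and Lrpprc was in 84 and 75 cells, at 272 and 6.41 TPM. Ppargc1a, the coactivator known for inducing respiratory genes in muscle and brown fat, was in 6 cells, and the mitochondrial rRNA methyltransferase gene Tfb1m in 15.

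Mitochondrial ribosomal protein genes were usual in 76 of 76 cases with a median of 85.1 TPM, from Mrpl42 (470 TPM, all cells) to Mrps30 (42 cells). Import genes were usual in 21 of 21 cases with a median of 101 TPM, led by the chaperonin gene Hspe1 (518 TPM) and the channel gene Timm23 (470 TPM), and ending with Timm9 (54 cells) and Tomm40 (44 cells). Genes of the citrate cycle and pyruvate entry were usual in 17 of 17 cases, at 129 TPM, with malate dehydrogenase Mdh2 at 793 TPM and fumarase Fh1 at 85.2 TPM. Pdha1 was in 67 cells and Dlat, another pyruvate dehydrogenase subunit, in 52. Glycolysis genes had 13 of 15 usual and a median of 478 TPM, close to the 398 TPM of the chain. Gapdh (2943 TPM) and Aldoa (1069 TPM) were in all cells, while Hk1 was in 35 and Pfkm in 22.

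The module score was set against the scores of these lists over the 84 cells, which share differences in genes detected. The score of all other 6956 commonly detected rows gave a rho of 0.43 (Pearson r 0.67, and 0.57 without the 2 farthest cells), and 0.22 once the relation to genes detected was taken out. Against that base, mitochondrial ribosomal proteins had 0.55 (r 0.71, 0.62 without 2 cells) and 0.48 after that step. The chain genes outside the rule had 0.55 (r 0.69, 0.55 without 2 cells) and 0.49. Both lists kept most of their correlation. Import genes had 0.44 and 0.41, citrate cycle genes 0.43 and 0.30, the proteasome 0.47 and 0.37, and cytosolic ribosomal proteins 0.45 and 0.36. Assembly factors fell from 0.50 to 0.25 and biogenesis regulators from 0.24 to 0.01.

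Glycolysis had a rho with the chain of 0.18 (Pearson r 0.35, and 0.28 without the 2 farthest cells), and 0.23 with genes detected taken out. Mitotic genes of the G2M phase had 0.02. Endothelial genes had 0.28 (r 0.47, and 0.49 without the 2 farthest cells), 0.40 with genes detected taken out, and -0.04 within the 42 cells without markers of another type. Mitochondrial ribosomal proteins had 0.35 within those cells, import genes 0.23, assembly factors 0.26 and citrate cycle genes 0.22. In the same cells the proteasome had 0.43 and cytosolic ribosomal proteins 0.39, both above the 4 mitochondrial lists. The 4 mitochondrial lists, the proteasome and the cytosolic ribosomal proteins each had a lower rho in those cells than in all 84. The part of cell type was not tested, and the value for all other commonly detected rows is not given for those cells.

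Of single genes outside the set, 276 of 6956 (3.97%) had a rho above 0.3 with the module score and 4 above 0.5. The most alike over the 84 cells were Ppia (0.61), which encodes cyclophilin A, Smagp (0.56), the ribosomal gene Rpl35a (0.54), Slmo2 (0.52), the peroxiredoxin gene Prdx1 (0.49), Ccdc43 (0.48), Cinp (0.47), Rpl30 (0.47), 1110001J03Rik (0.47) and Rab21 (0.47). With genes detected taken out, Slmo2 had 0.51, Ppia 0.50, Cinp 0.44, Ccdc43 0.42, 1110001J03Rik 0.41, Prdx1 0.40, Rpl35a 0.37, Smagp 0.35, Rpl30 0.28 and Rab21 0.19. Smagp and Rab21 were low, at medians of 2.15 and 1.36 TPM. Among the 100 most alike rows stood 12 of 79 cytosolic ribosomal protein genes (15.2%), 2 of 13 chain genes outside the rule and 1 of 76 mitochondrial ribosomal protein genes, against 1.44% of all those rows.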

How the data were processed

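The deposited table gives TPM, scaled to transcript length and a fixed total, for 84 single cells, and per the submitters' processing notes the authors used CASAVA 1.8.2, RSEM 1.2.3, Bowtie 0.12.9 and build mm10. How these were run, and with which annotation, is not given in the sources used here. Per the labels' protocols, cells of 10 to 17 µm were captured on a chip, and libraries were read single-end at 67 bases, 24 to a lane. TPM sums to a fixed total, so depth is unknown, and a value of 0 can be a missed transcript. Cells are not replicates, and no test was run.

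A gene was detected at TPM 1 and usual in at least 42 cells. Correlations are Spearman's rho of log2(TPM + 1). In the SDs and the scores, adding 1 before the logarithm understates differences of low genes. The SD trend is a lowess fit (span 0.2). Spliced lengths are the longest protein-coding transcript of GENCODE M21, and coordinates are RefSeq GRCm38.p6. The longest transcript need not be the one expressed: the length of Atp5g1, 4715 bases, exceeds its RefSeq span (11:96072793-96075694). Such lengths also enter the correlations with length. The set and the 14 gene lists were chosen with earlier results of these data known. The list of mitochondrially encoded genes is not analysed here. Genes named are the 3 highest and lowest of each complex, all isoforms and genes under 42 cells, the 5 highest and lowest mean rho, the 10 rows most alike and the 2 most and fewest detected of each list; others were chosen after their values were seen. Values of 2 genes are not reported here. Scripts used Python 3.11.15 with scipy 1.17.1 and statsmodels 0.14.6 and were tested on simulated data. Alternatives were other thresholds, pseudocounts, scaling, correlation measures and subsets of genes and cells.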

Additional observations from a re-analysis of the deposited data

How the results depend on the processing

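Of 300 recomputed values over 32 results and 14 settings, 255 stayed within a limit and 45 moved more. The limit was 1.5 times for counts, the SD over cells for levels, and the SD over the 7 index sets for correlations and shares. Some values could not move: a pseudocount leaves Spearman's rho of a gene pair unchanged, and keeping only subunits drops no usual member. For correlations and shares, the lowest and highest of the 7 sets were judged against the SD of those same sets. The 2 counts therefore do not measure robustness. Leaving out cells 72 and 78, or the 4 cells with under 3 endothelial markers, alternatives chosen after seeing the data, moved none beyond its limit. The median rho of all pairs of rows (0.0232) was 0.0326 with Pearson's r and 0.00407 with genes detected taken out. Taking genes detected out gave 0.246 for assembly factors against the module score. Without the 42 cells holding markers of another type, that value was 0.261, citrate cycle genes 0.223 and endothelial genes -0.0352.

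The other moved values are the lowest or highest within the 7 sets of 12 cells. The median rho of all pairs ran from 0.0112 to 0.0352, of member pairs down to 0.0140, and of pairs within minus between complexes from -0.0157 to 0.0350. The complex IV median reached 762 TPM. The module score's rho ran from 0.231 to 0.755 for assembly factors, -0.54 to 0.41 for G2M genes, 0.231 to 0.818 for the citrate cycle, 0.0350 to 0.755 for cytosolic ribosomes, -0.27 to 0.76 for genes detected, -0.0559 to 0.608 for glycolysis and 0.259 to 0.755 for the proteasome. It was as low as -0.294 for endothelial and -0.133 for import genes, and as high as 0.923 for mitochondrial ribosomes. Shares ran from 31% to 37.9% for Atp5g1, 18.1% to 26.5% for Atp5g2, 39.7% to 56.6% for Cox7a2 and 43.4% to 56.1% for Cox7a2l. Highest shares were 49.8% for Atp5g3, 0.528% for Cox4i2, 3.49% for Cox6b2, 4.17% for Cox7a1, 0.555% for Cox7b2, 0.262% for Cox8b, 0.0402% for Cox8c and 0.339% for Ndufa4l2. The cause of these moves was not tested, and correlations over 12 cells are imprecise.

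Rescaling TPM without mitochondrially encoded genes was not run, since the TPM total includes no such transcripts, and the motif counts had no alternative. No paired analysis was possible because the cells form 1 group. Unknown depth limits every value near 0.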

Other observations

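Atp5s and Atp5sl, which carry ATP synthase names without being structural subunits, were detected in 30 and 36 of 84 cells, with highest values of 190.3 and 175 TPM. Each subunit gene named for the same complex was detected in 83 or 84 cells. Of 12 targets known from hypoxia, 5 were detected in at least 42 cells, at a median of 5.61 TPM. The glucose transporter gene Slc2a1 (65 cells, median 42.1 TPM) and the mitophagy gene Bnip3 (59 cells, 29.4 TPM) led them, and Cox4i2 and Ndufa4l2 came last. Of 7 mitochondrial antioxidant genes, 6 were detected that often, at a median of 114 TPM. The lipid peroxidase gene Gpx4 (median 422 TPM) and the glutaredoxin gene Glrx2 (46.6 TPM) were detected in the most cells, 83 each. Prdx5 was in 65 cells and Txnrd2 in 27. The score of the antioxidant genes had a rho of 0.29 with the module score, and 0.30 with genes detected taken out. For the 5 hypoxia targets these values were 0.33 and 0.17, and for all other commonly detected rows 0.43 and 0.22.

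For reference lists outside the mitochondrion, cytosolic ribosomal protein genes were detected in at least 42 cells in 79 of 82 cases with a median of 1708 TPM, from Rpl41 (6757 TPM) and Rps19 (4597 TPM) to Rpl3l (2 cells) and Rpl10l (1 cell). Proteasome genes were so in 36 of 39 cases with a median of 279 TPM. Psmb6 (1379 TPM) and Psma7 (925 TPM) were in all cells, and the immunoproteasome genes Psmb9 and Psmb8 in 3 and 2 cells. All 16 mitotic genes of the G2M list were detected that often, at 54.9 TPM, with Birc5 (332 TPM) and Hmmr (51.8 TPM) in all cells and Aurkb and Aurka in 51 each. All 10 endothelial genes were detected that often, at 147 TPM. By cells detected they ran from Emcn (84 cells, 925 TPM) and Kdr (83 cells, 159 TPM) to Tie1 (69 cells) and Esam (66 cells).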
